A study of Homo sapiens with 9 samples.

Results

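The 9 genes described here encode death receptors and the proteins that carry their signal: FAS, TNFRSF10A, TNFRSF10B, TNFRSF10D, TNFRSF1A, FADD, CASP8, CFLAR and BID. They were taken by gene symbol, with every probe set annotated to 1 of them alone, which gave 36 of the 54675 probe sets on the array. Each gene was measured by the brightest of its probe sets, chosen by the mean level over all 9 arrays, and that level is not used as a result. The gene group was put together with earlier results of these arrays known, so the p-values of these genes describe these arrays and support no choice of genes.

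RNA was measured on Affymetrix arrays from SW1783 cells, an established human glioma line, 24 h after transfection of miRNA duplexes at 50 nM with Lipofectamine RNAiMAX. The 3 groups of 3 biological replicates received duplexes of miR-376a*A, of miR-376a*G, or of a control miRNA called miR-control, and all cells shared the line, the carrier, the dose and the time. miR-376a*A is the unedited form of the 5′ strand of miR-376a, and miR-376a*G carries G at a seed position where A-to-I editing leaves inosine. The cells stand in for glioma as 1 cultured line with an added duplex. A lower signal in bulk RNA cannot tell a smaller share of cells with that RNA from less of it per cell.

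Death receptors are surface proteins of the tumour necrosis factor receptor family with a death domain inside the cell. When a ligand binds FAS or a TRAIL receptor, the adaptor FADD and the caspase CASP8 gather at that domain and the caspase becomes active, unless CFLAR (c-FLIP), a caspase-like protein without caspase activity, takes its place. Active CASP8 cuts the executioner caspases and also BID, whose fragment carries the signal to mitochondria. Glioma cells are known to vary in their sensitivity to FAS ligand and TRAIL.

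The 5′ strand of miR-376a, for which both duplexes are named, is shown because its seed holds the edited base. RefSeq places it in MIR376A1 at chr14:101040788-101040809 on the plus strand of GRCh38.p14, and the capitals mark the seed, bases 2 to 8 from the 5′ end.
hsa-miR-376a-5p: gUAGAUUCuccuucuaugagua
This is the sequence encoded in the genome, without editing, and the sequences of the duplexes themselves were not used here.

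Values are linear signal units as deposited, on arrays that had been scaled to trimmed means between 100.01 and 100.013. The array medians lay between 18.8 and 24.0 signal units. Control replicate 1 stood apart: its highest rank correlation with any other array was 0.941, against 0.969 to 0.970 for the other 8 arrays. It differed 2-fold or more from the mean of the other controls in 772 genes, against 25 genes between those controls. It gave the lowest control value for FAS, TNFRSF10A, TNFRSF10B, TNFRSF10D, CASP8 and CFLAR and the highest for TNFRSF1A, FADD and BID. Each call below is therefore also given without it where that changes the call. For this, control replicate 1 was left out of the fit only, after all arrays had been normalized and filtered and the probe sets chosen. Among the fixed astrocytic markers, GFAP and S100B were at signals of at most 3.75 and 2.64 on any array, while SOX9 lay between 356 and 530, and 6 of 12 were above the filter on dim probe sets. Of the 5 markers of blood cells, 1 was above the filter, and PTPRC, their shared surface marker, was at most 12.2. All 6 fibroblast and mesenchymal markers were above it, with summed signals of 10364 to 11777 after miR-376a*A, 10121 to 10369 after miR-376a*G and 10038 to 16208 in the controls, the highest being control replicate 1, and their part in the results was not tested.

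Among the 9 genes, TNFRSF10B fell after miR-376a*G and FAS rose after miR-376a*A, and no other member passed the test against control. TNFRSF10B encodes TRAIL receptor 2 (DR5), which binds TRAIL and passes on a death signal. It stood at 2.17-fold less after miR-376a*G than in the controls, while after miR-376a*A it did not pass. FAS, the receptor for FAS ligand, was 1.47-fold higher after miR-376a*A, and after miR-376a*G it was 1.38-fold above control without passing. The test was limma on normalized log2(signal + 16), with p-values adjusted over 12505 genes and a threshold of 0.05. The fold values come from that scale and are not ratios of the deposited signals. In it 3.33% of all genes were called for miR-376a*A against control (1.95% as higher) and 4.62% for miR-376a*G against control (2.12% as lower), so 1 called member of 9 in each is read as a result about that gene and not about the group. The median log2 change of the 9 members was 0.15 after miR-376a*A and 0.02 after miR-376a*G, against 0.01 over all genes in both comparisons. Both comparisons share the control arrays. Without control replicate 1, 2 members passed in each of the 3 comparisons: FAS and TNFRSF1A after miR-376a*A, FAS and TNFRSF10B after miR-376a*G, and TNFRSF10B and TNFRSF1A between both forms. In that fit 13.3%, 17.0% and 9.68% of all genes were called in these comparisons.

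**Figure D1:**
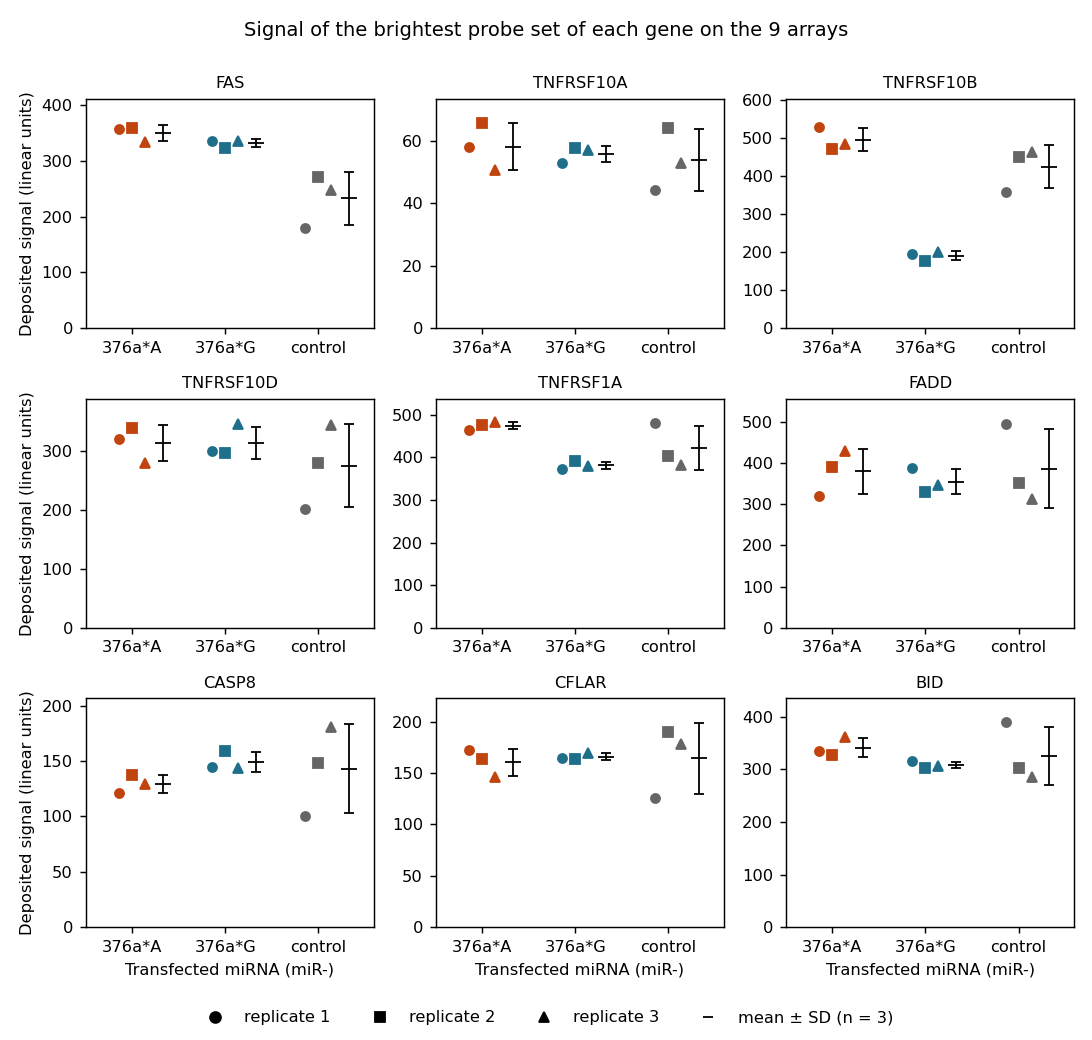
Deposited signal (linear units, axes from 0) of the brightest probe set of each of the 9 genes by transfected miRNA, with a symbol per replicate array and the mean ± SD of 3 arrays beside it. For TNFRSF10B the 3 miR-376a*G arrays lie between 177 and 200, below all other arrays, and for FAS all 6 arrays with miR-376a* lie above all control arrays.

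FAS is described first among the receptors. Its brightest probe set, 204780_s_at, gave signals of 358, 359 and 333 after miR-376a*A, of 336, 323 and 336 after miR-376a*G, and of 180, 271 and 248 in the controls. All 6 arrays with either form were above all 3 control arrays, and the 3 arrays of miR-376a*G lay closest together. The means were 350 ± 14.4 after miR-376a*A, 332 ± 7.57 after miR-376a*G and 233 ± 47.7 in control (SD, n = 3 each). The log2 fold change was 0.56 after miR-376a*A (SE 0.12, limma adjusted p = 0.0354) and 0.47 after miR-376a*G (SE 0.12, limma adjusted p = 0.0598). Between both forms it was 0.09 with a 95% interval of -0.18 to 0.36 (limma adjusted p = 0.954), so these arrays do not separate them for FAS and do not show that they act alike. Without control replicate 1, the lowest of the 9 arrays, the changes were smaller and both passed, at 0.43 after miR-376a*A (limma adjusted p = 0.00472) and 0.35 after miR-376a*G (limma adjusted p = 0.0137). The call after miR-376a*A held in 8 of 19 alternative analyses. Leaving out any of the 6 arrays with miR-376a*, or control replicate 3, ended it, with limma adjusted p from 0.0601 to 0.167. FAS after miR-376a*G passed in 4 of 19 alternatives. They were without control replicate 1, without control replicate 2 (limma adjusted p = 0.0389), with array weights and with the mean of probe sets. With the mean of probe sets FAS was the 1 member called after miR-376a*G against control, in place of TNFRSF10B.

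The other FAS probe sets carried the same direction except for the dimmest. Probe set 215719_x_at gave 131, 148 and 126 after miR-376a*A, 126, 110 and 144 after miR-376a*G, and 57.2, 79.8 and 82.8 in the controls. Probe set 204781_s_at gave 193, 190 and 163 after miR-376a*A, 178, 149 and 185 after miR-376a*G, and 88.3, 105 and 127 in the controls. In both probe sets the lowest array with either form was above the highest control array. When all 27338 probe sets above the filter were tested, 3 of 5 FAS probe sets passed as higher after miR-376a*A and 2 of 5 after miR-376a*G. Over all probe sets 2.49% were called for miR-376a*A against control (1.44% as higher) and 3.44% for miR-376a*G against control (1.93% as higher and 1.51% as lower). The log2 changes of 215719_x_at were 0.81 and 0.71 after miR-376a*A and miR-376a*G (limma adjusted p = 0.0180 and 0.0287), and those of 204781_s_at were 0.71 and 0.61 (limma adjusted p = 0.0219 and 0.0363). Probe set 216252_x_at gave 0.65 and 0.56 without passing, and 233820_at, the dimmest, gave -0.01 and -0.17, with groups that overlapped. Without control replicate 1, 4 of the 5 passed in both comparisons. When the replicate number was added as a block, none of the FAS probe sets passed after miR-376a*G (limma adjusted p of 0.0617 for 215719_x_at and 0.0871 for 204781_s_at).

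**Figure D2:**
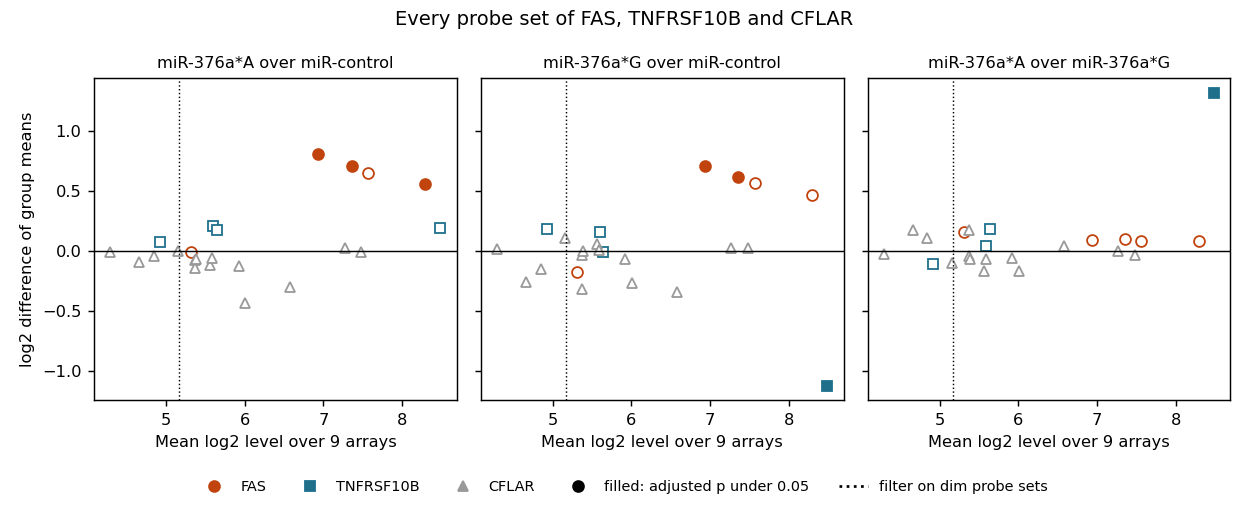
Difference of group means (log2) of every probe set of FAS, TNFRSF10B and CFLAR against its mean log2 level over the 9 arrays, for each comparison, with filled symbols where the limma adjusted p over all probe sets was under 0.05 and a dotted line at the filter of 5.17. The 4 brighter FAS probe sets lie above 0 against control with both forms, the brightest TNFRSF10B probe set lies at -1.12 after miR-376a*G, and no CFLAR probe set is filled.

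Among the TRAIL receptors, TNFRSF10B was the member that passed. TNFRSF10B (probe set 209295_at) gave signals of 529, 471 and 484 after miR-376a*A, of 193, 177 and 200 after miR-376a*G, and of 358, 450 and 463 in the controls. The 3 arrays of miR-376a*G were below all others with no overlap, and those after miR-376a*A were all above the control arrays. The means were 495 ± 30.2 after miR-376a*A, 190 ± 11.8 after miR-376a*G and 423 ± 56.9 in control (SD, n = 3 each). The log2 fold change after miR-376a*G was -1.12 (SE 0.11, 95% interval -1.37 to -0.87, limma adjusted p = 0.000530), the 75th largest change in either direction among 12505 genes. After miR-376a*A it was 0.20 (SE 0.11, 95% interval -0.05 to 0.44), which did not pass (limma adjusted p = 0.468). Without control replicate 1 the fall after miR-376a*G was -1.20 (limma adjusted p = 1.05e-05).

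Set directly against each other, miR-376a*A gave 2.48-fold more TNFRSF10B signal than miR-376a*G. The log2 difference was 1.31 (SE 0.11, 95% interval 1.07 to 1.56, limma adjusted p = 0.000245), the 27th largest of all genes, and it was the 1 call among the 9 members in a comparison where 2.63% of all genes were called (1.39% as higher). The median difference of the 9 members was 0.09 on the log2 scale, against 0.00 over all genes. On the normalized log2 values, groups did not overlap in 5 of 9 members in this comparison, against 29.5% of all genes. On the deposited signals the groups of FAS overlapped, and those of TNFRSF10B, TNFRSF1A, CASP8 and BID did not. The share over all genes was not computed on that scale, so no count is read from it. In each comparison with control the groups of 2 of 9 genes, FAS and TNFRSF10B, did not overlap on either scale, and on the normalized values neither did those of 20.5% of all genes after miR-376a*A and 21.7% after miR-376a*G.

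The fall in TNFRSF10B rests on 1 probe set. The other probe sets of the gene above the filter, 210405_x_at and 209294_x_at, had signals of 28.0 to 42.8 and of 21.9 to 56.5 over the 9 arrays. Their log2 changes after miR-376a*G against control were -0.01 and 0.16, with groups that overlapped, and neither passed (limma adjusted p = 0.985 and 0.791). The fourth, 1556645_s_at, at 9.26 to 21.0, was below the filter and was not tested. Averaging the 3 tested probe sets turned the change of the gene into -0.32 after miR-376a*G against control (limma adjusted p = 0.173) and 0.52 between miR-376a*A and miR-376a*G (limma adjusted p = 0.0557), neither past the threshold. In the other 18 of 19 alternative analyses both calls held.

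TNFRSF10A encodes TRAIL receptor 1 (DR4), which also signals death, and TNFRSF10D encodes a TRAIL receptor with a truncated death domain, known as a decoy. TNFRSF10A gave 58.2, 65.7 and 50.7 after miR-376a*A, 53.1, 57.8 and 57.1 after miR-376a*G, and 44.3, 64.3 and 53.1 in the controls. The groups overlapped in every comparison. Its log2 changes were 0.15 after miR-376a*A (95% interval -0.15 to 0.46) and 0.11 after miR-376a*G (95% interval -0.19 to 0.42), and 2 further probe sets gave 0.02 to 0.20 after miR-376a*A and -0.02 to 0.27 after miR-376a*G. TNFRSF10D gave 322, 339 and 280 after miR-376a*A, 300, 298 and 346 after miR-376a*G, and 202, 281 and 344 in the controls. Its groups overlapped as well, with log2 changes of 0.18 after miR-376a*A (95% interval -0.16 to 0.52) and 0.17 after miR-376a*G (95% interval -0.17 to 0.51). The second TNFRSF10D probe set, at 7.41 to 19.8, was below the filter. Falls of the size seen for TNFRSF10B lie outside the intervals of both genes after miR-376a*G.

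TNFRSF1A encodes TNF receptor 1, which binds TNF and signals through TRADD to NF-kappaB or to death. Its signals were 466, 476 and 483 after miR-376a*A, 373, 391 and 380 after miR-376a*G, and 481, 403 and 382 in the controls. The miR-376a*A arrays were all above the miR-376a*G arrays, and both groups overlapped the controls, of which replicate 1 was far above the others. The log2 change was 0.15 after miR-376a*A (SE 0.11, limma adjusted p = 0.587) and -0.16 after miR-376a*G (SE 0.11, limma adjusted p = 0.501). Between miR-376a*A and miR-376a*G it was 0.32 (SE 0.11, 95% interval 0.07 to 0.56) with an unadjusted p of 0.0173, which did not pass over all genes in limma (adjusted p = 0.258). Without control replicate 1, which enters that difference through the shared estimate of the spread, it passed with limma adjusted p = 0.00963, and the change after miR-376a*A against control was then 0.27 and passed too (limma adjusted p = 0.0328).

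**Figure D3:**
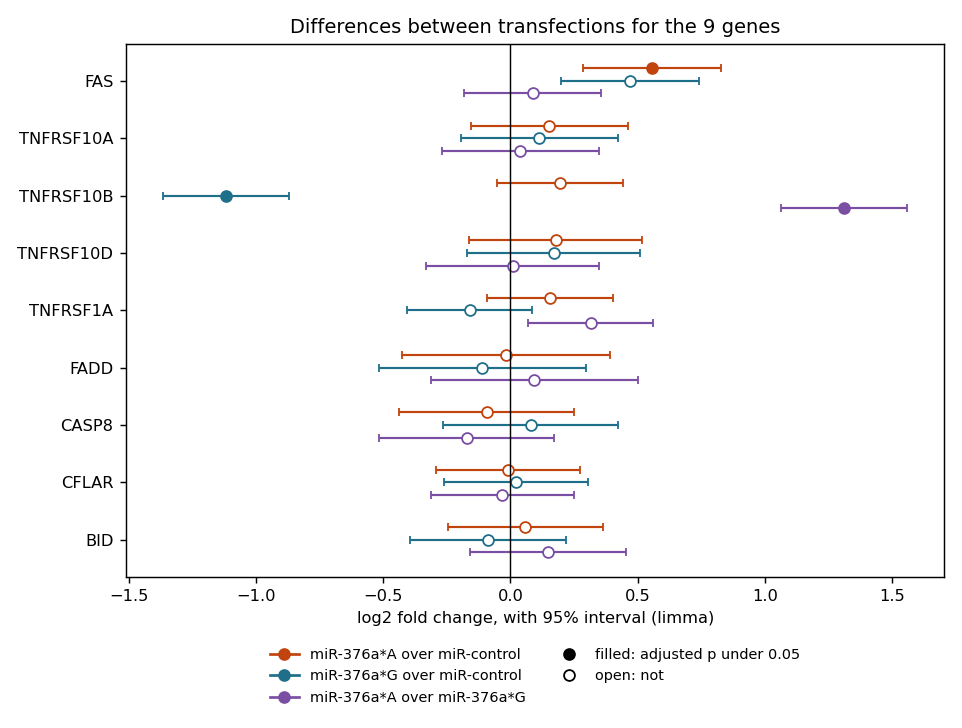
Log2 fold change of each of the 9 genes with its 95% interval from limma, for miR-376a*A over miR-control, miR-376a*G over miR-control and miR-376a*A over miR-376a*G, with filled points where the adjusted p over all genes was under 0.05. TNFRSF10B at -1.12 and 1.31 and FAS at 0.56 are the 3 filled points, and the intervals of all other genes against control include 0 except that of FAS after miR-376a*G.

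The signalling proteins inside the cell did not pass in any comparison, in the main analysis or in any of the 19 alternatives. FADD, the adaptor, gave 321, 391 and 430 after miR-376a*A, 388, 331 and 348 after miR-376a*G, and 496, 352 and 313 in the controls, with groups that overlapped. Its log2 changes were -0.02 after miR-376a*A and -0.11 after miR-376a*G, and their 95% intervals, -0.42 to 0.39 and -0.52 to 0.30, were the widest of the 9 members.

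CASP8, the initiator caspase, gave 122, 138 and 129 after miR-376a*A, 144, 159 and 144 after miR-376a*G, and 101, 149 and 181 in the controls. The control arrays spanned the range of both other groups, and each miR-376a*A array was below each miR-376a*G array. The log2 difference between miR-376a*A and miR-376a*G was -0.17 (95% interval -0.52 to 0.17, limma adjusted p = 0.880). A second probe set gave -0.06 for that difference, and the third, at 1.35 to 18.5, was below the filter.

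CFLAR, the inhibitor, has the most probe sets, 14, of which 10 were above the filter, and those with probes shared between its isoforms cannot tell the long from the short form. The brightest, 209939_x_at, gave 172, 164 and 146 after miR-376a*A, 164, 164 and 170 after miR-376a*G, and 125, 190 and 178 in the controls. The treated arrays all lay within the range of the controls. Its log2 changes were -0.01 after miR-376a*A (95% interval -0.29 to 0.27) and 0.02 after miR-376a*G (95% interval -0.26 to 0.30). Over the 10 probe sets the changes ran from -0.43 to 0.03 after miR-376a*A, with 9 of 10 below 0, and from -0.34 to 0.06 after miR-376a*G, with 6 of 10 below 0. None of them passed, and these probe sets share transcripts and are not independent. The lowest after miR-376a*A, 214486_x_at, had signals of 42.1, 33.2 and 42.5 after miR-376a*A, against 66.5, 52.2 and 63.3 in the controls (log2 -0.43, SE 0.14, limma adjusted p = 0.162).

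BID gave 334, 327 and 362 after miR-376a*A, 315, 303 and 307 after miR-376a*G, and 389, 302 and 285 in the controls. The miR-376a*A arrays were all above the miR-376a*G arrays, and the controls spanned both. The log2 change was 0.06 after miR-376a*A and -0.09 after miR-376a*G against control, and 0.15 between miR-376a*A and miR-376a*G (95% interval -0.16 to 0.45). Another probe set, 204493_at, ran the other way between both forms at -0.10, also without overlap and without passing.

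Of the 36 probe sets, 29 lay above the filter, a mean of 5.17 on the log2 scale, and every gene had at least 1. Just inside it was 233820_at of FAS at 5.31, and just outside it was 235427_at of CFLAR at 5.16. Of the 29, 3 passed after miR-376a*A against control, 3 after miR-376a*G against control and 1 between both forms, and all of them belong to FAS or TNFRSF10B. In the last comparison 1.84% of all probe sets were called, with 0.988% higher after miR-376a*A.

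A list of 65 other genes of the pathway, of which 47 could be tested, was set beside the members. After miR-376a*A 2 of the 47 were higher and 0 lower than in control, and after miR-376a*G 4 were higher and 1 lower, against 1.95% higher and 1.38% lower of all genes after miR-376a*A, and 2.50% higher and 2.12% lower after miR-376a*G. Without control replicate 1 there were 7 calls after miR-376a*A, 9 after miR-376a*G and 2 between both forms, against 2, 5 and 1 with all arrays. In that fit 13.3%, 17.0% and 9.68% of all genes were called. The median log2 change of the 47 was 0.08 in both of these comparisons and -0.04 between both forms. The receptor TNFRSF21 (DR6), a death receptor best known from neurons and myelinating cells, was the 1 that fell. Its signals were 452, 458 and 438 after miR-376a*A, 254, 272 and 270 after miR-376a*G, and 393, 432 and 492 in the controls. As for TNFRSF10B, the 3 arrays of miR-376a*G lay below all others. The log2 change was -0.73 after miR-376a*G (SE 0.10, limma adjusted p = 0.00292) and 0.01 after miR-376a*A (limma adjusted p = 0.977), and the difference between miR-376a*A and miR-376a*G was 0.74 (SE 0.10, limma adjusted p = 0.00301), the 1 call of the list in that comparison. Both calls held in 19 of 19 alternative analyses. A second probe set of the gene gave -0.44 after miR-376a*G without passing (limma adjusted p = 0.369). The other receptors that could be tested, TNFRSF25 and the decoy TNFRSF11B (osteoprotegerin), did not pass in the main analysis. TNFRSF11B passed after miR-376a*A without control replicate 1, at a log2 change of 0.66 (limma adjusted p = 0.0423).

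Among the ligands, TNFSF15 (TL1A), which binds the receptor TNFRSF25, gave 303, 317 and 294 after miR-376a*A, 180, 251 and 273 after miR-376a*G, and 116, 179 and 140 in the controls. The 3 miR-376a*A arrays were above all others, and the lowest miR-376a*G array was close to the highest control. Its log2 change was 1.01 after miR-376a*A (SE 0.16, limma adjusted p = 0.00769) and 0.63 after miR-376a*G (SE 0.16, limma adjusted p = 0.0596), and a second probe set gave 0.35 and 0.27 without passing. The change after miR-376a*G passed in 4 of 19 alternatives. They were without control replicate 1, control replicate 2 or miR-376a*G replicate 1 (limma adjusted p from 0.0318 to 0.0398), and with the mean of probe sets (0.45, limma adjusted p = 0.0151). TNFSF10, which encodes TRAIL, gave 18.6, 23.9 and 28.6 after miR-376a*A, 28.5, 29.8 and 33.1 after miR-376a*G, and 45.8, 36.6 and 41.8 in the controls. The controls were all above both other groups, at signals near the filter, and the log2 changes of -0.47 after miR-376a*A and -0.24 after miR-376a*G did not pass (limma adjusted p = 0.105 and 0.408).

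BCL2, which holds back the mitochondrial step that BID promotes, was higher with both forms in its brightest probe set, with control signals near the filter. It gave 44.8, 42.7 and 44.9 after miR-376a*A, 53.4, 55.0 and 76.8 after miR-376a*G, and 23.7, 24.8 and 26.6 in the controls, with no overlap between any groups. The log2 change was 0.62 after miR-376a*A (SE 0.14, limma adjusted p = 0.0352) and 0.97 after miR-376a*G (SE 0.14, limma adjusted p = 0.00333). A second, dimmer probe set gave -0.27 and -0.16 without passing, and averaging both left 0.18 and 0.40, neither past the threshold. The call after miR-376a*A held in 6 of 19 alternative analyses and that after miR-376a*G in 18 of 19. Leaving out any miR-376a*A array, miR-376a*G replicate 1 or 2, or control replicate 2 or 3 ended the call after miR-376a*A (limma adjusted p from 0.0583 to 0.156). Of the other 12 tested genes of the BCL2 family and the mitochondrial step, none passed in the main analysis. When control replicate 1 was left out, PMAIP1 (NOXA), which promotes death, passed after miR-376a*A at -0.35 (limma adjusted p = 0.0149) and between miR-376a*A and miR-376a*G at -0.28 (limma adjusted p = 0.0295), and BOK passed after miR-376a*A at 0.30 (limma adjusted p = 0.04996).

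After miR-376a*G 3 further genes of the list were higher than in control: PARP1, a DNA repair enzyme that executioner caspases cut (0.41, limma adjusted p = 0.0417), BIRC5, survivin, which is also a mitosis gene (0.35, limma adjusted p = 0.0449), and SRPRB, a receptor subunit of the protein export machinery (0.33, limma adjusted p = 0.0207). PARP1 gave 348, 358 and 329 after miR-376a*G, against 220, 268 and 266 in the controls. Other BIRC5 probe sets gave 0.31, 0.19 and -0.07 without passing (limma adjusted p = 0.110, 0.615 and 0.899). Adjusted over all probe sets, those used for PARP1 and BIRC5 did not pass (limma adjusted p = 0.0554 and 0.0529). The one used for SRPRB did (limma adjusted p = 0.0250). Its other probe sets gave 0.65, which passed, and 0.41, which did not (limma adjusted p = 0.0229 and 0.0985). With the block of replicate numbers PARP1 and BIRC5 no longer passed (limma adjusted p = 0.104 and 0.0809), and SRPRB did (limma adjusted p = 0.0498). The calls held in 8, 4 and 10 of 19 alternative analyses for PARP1, BIRC5 and SRPRB. Leaving out any array other than control replicate 1 ended those of PARP1 and BIRC5 (limma adjusted p from 0.0588 to 0.183), and leaving out any miR-376a*G array, miR-376a*A replicate 2 or control replicate 2 ended that of SRPRB (limma adjusted p from 0.0546 to 0.0838). None of the 11 tested adaptors and complex proteins passed in the main analysis. With control replicate 1 left out RBCK1, a subunit of the linear ubiquitin ligase, passed at 0.38 after either form (limma adjusted p = 0.00852 after miR-376a*A and 0.00705 after miR-376a*G), and TNFAIP3 (A20) passed at 0.34 and 0.49 (limma adjusted p = 0.0490 and 0.00703). In the group of SRPRB, CLTC, the clathrin heavy chain, then passed after miR-376a*G at -0.19 (limma adjusted p = 0.0288). The brightest genes of groups with no call so far were PEA15 among the adaptors (1236 ± 46.1 after miR-376a*A, 1292 ± 76.7 after miR-376a*G and 1024 ± 200.3 in control) and MLKL of necroptosis (54.6 ± 2.68 after miR-376a*A, 58.4 ± 12.5 after miR-376a*G and 53.1 ± 9.03 in control, SD, n = 3 each). The brightest in the groups of PARP1, BCL2 and SRPRB were CASP2, CYCS and SRP72, with means of 891, 2102 and 2662 after miR-376a*A, of 914, 2071 and 2533 after miR-376a*G, and of 825, 2210 and 2914 in control.

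**Figure D4:**
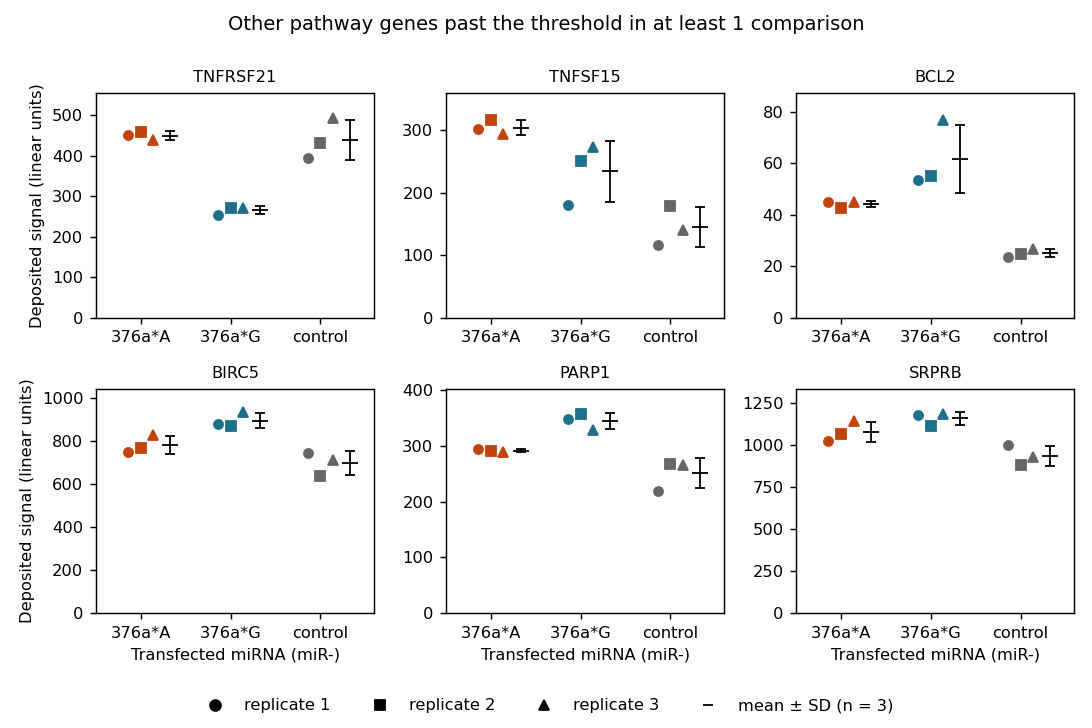
Deposited signal (linear units, axes from 0) on the 9 arrays of the 6 other pathway genes that passed in at least 1 comparison, with a symbol per replicate array and the mean ± SD of 3 arrays. TNFRSF21 is at 254 to 272 after miR-376a*G and at 393 or more on all other arrays, and BCL2 is at 23.7 to 26.6 in control and at 42.7 or more with either form.

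The genes whose values over the 9 arrays followed TNFRSF10B most closely were PNMA8A (Pearson r = 0.987), RBM23 (0.985), PABIR2 (0.984) and TTC7B (0.981), of all genes tested. RBM23 averaged 530 ± 29.8 after miR-376a*A, 252 ± 8.78 after miR-376a*G and 484 ± 52.1 in the controls (SD, n = 3 each), and PNMA8A averaged 454 ± 22.5 after miR-376a*A, 262 ± 0.913 after miR-376a*G and 435 ± 18.8 in the controls. All 4 fell after miR-376a*G against control, by 0.73 to 1.54 on the log2 scale, which the choice by likeness fixes, and of 2 other probe sets of PABIR2, 1 gave -1.49 and passed (limma adjusted p = 0.0157) and 1 gave 0.21 without passing. For FAS the closest were NR1D2 (r = 0.989), RAB40B (0.988), UNG (0.987) and ZDHHC20 (0.987). NR1D2 averaged 140 ± 10.4 after miR-376a*A, 113 ± 10.3 after miR-376a*G and 46.1 ± 14.8 in the controls (SD, n = 3 each). These are descriptions over arrays that fall into 3 groups.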

How the data were processed

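Biotin-ULS labelled total RNA of SW1783 cells was hybridised to 9 arrays, as the labels' protocols state. The submitters' processing notes name GCOS version 1.4.0.036. The authors deposited 1 linear signal intensity per probe set and array, and each array had been scaled to a common trimmed mean (2% off each end). How probes were summarised and background was removed is not given in the sources used here, no detection calls were used, and a change common to most transcripts would be scaled away.

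A pseudocount of 16 was added, log2 was taken and the arrays were quantile normalized, since their medians ranged over 0.20 on that scale. Fold changes on it understate those of dim genes. Gene names came from the platform annotation: 41097 probe sets had 1 symbol, 1801 several and 11777 none in the table used here. The RefSeq table of GRCh38.p14 held 41043 of them and changed 0 symbols. Probe sets whose mean was below the 50th percentile were left out, and the brightest of each gene was kept. The 3 groups were fitted together in limma 3.58.1 (R 4.3.3, lmFit, eBayes with an intensity trend), with Benjamini-Hochberg adjustment over all genes, and the code was tested on simulated data. The replicates are stated to be biological, and the small number of arrays limits the precision: with 3 arrays on either side no two-sided exact permutation test can give p below 0.1.

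The members, the pathway and marker lists and the tests were chosen with earlier results of these data known. Named are the 9 members, the listed pathway genes past the threshold, the brightest gene of each pathway group, and the 4 genes most alike to each of the 2 members with the largest changes against control. Of the 65 listed genes 18 were not tested: 12 lay below the filter, and 6 had no probe set annotated to them alone in the table used here. Deviations from the group means in same-numbered arrays of miR-376a*G and miR-control had r of 0.125 to 0.187 over genes in the 3 pairs. As r was above 0 in all 3, results with the replicate number as a block stand beside calls of that comparison that they change. For miR-376a*A and miR-control r was -0.335, 0.032 and -0.361, and for miR-376a*A and miR-376a*G it was -0.098 to -0.031. Arrays of unlike number were not compared, so these values do not show that a replicate number has an effect. No label ties a replicate number to a culture or a day.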

Additional observations from a re-analysis of the deposited data

How the results depend on the processing

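The fall of TNFRSF10B after miR-376a*G against control and its difference between miR-376a*A and miR-376a*G kept their direction in 19 of 19 alternatives and their call in 18 of 19, the exception being the mean of probe sets given above. With each array centred on its median, without normalization between arrays, in fits of only the 6 arrays compared and with the replicate block (limma adjusted p = 0.0868 for FAS), 0 members were called for miR-376a*A against control. The mean of probe sets called 0 members between miR-376a*A and miR-376a*G, and for miR-376a*G against control it called FAS as higher and not TNFRSF10B. Fits of only the 6 arrays compared called 156 genes for miR-376a*A against control, 204 for miR-376a*G against control and 1292 between both forms, and array weights called 2315, 2427 and 1656. The 6-array fits called 2 members and 2 probe sets between both forms, 0 probe sets for miR-376a*A and 1 for miR-376a*G against control. Array weights called 2 members in each comparison, and 5, 5 and 2 probe sets. The replicate block called 360 genes for miR-376a*G, and 1 member probe set in each comparison with control, and changed no other call of members in that comparison. Without the filter 1 probe set was called for miR-376a*G. Pathway genes called for miR-376a*A came to 1 without normalization, with a pseudocount of 64, without the filter, in the 6-array fit and with the block, and to 12 with array weights. Pathway genes not called in the main analysis but in alternatives with all 9 arrays were TNFRSF11B, TNFAIP3, PEA15, TNFSF10, RBCK1, BOK, PMAIP1, BAD, ARF1, CYLD, CLTC, CASP9 and BCL2L11, with the mean of probe sets or array weights. All pathway genes called for miR-376a*G against control came to 2 with median centring and in the 6-array fit, to 3 without normalization, with the block and without an intensity trend, and to 10 with weights. Between both forms they came to 2 in the 6-array fit and 7 with weights. Leaving out 1 array at a time gave 176 to 1669 genes, 0 to 2 members, 0 to 5 member probe sets and 1 to 7 pathway genes for miR-376a*A against control. It gave 235 to 2124 genes, 1 to 2 members, 1 to 5 probe sets and 2 to 9 pathway genes for miR-376a*G against control, and 143 to 1210 genes, 1 to 2 members, 1 to 2 probe sets and 1 to 2 pathway genes between both forms, with the highest counts of genes without control replicate 1.

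Changes of sign occurred in values that passed in no setting. After miR-376a*A against control they were, on the log2 scale, -0.020 for BID (mean of probe sets), 0.056 for CFLAR and 0.062 for FADD (median centring), 0.15 for FADD and -0.0058 for TNFRSF10A (weights). After miR-376a*G against control they were 0.0020 for BID (median centring), -0.090 for CFLAR (mean of probe sets), and with weights 0.038 for BID, -0.0034 for CASP8, -0.13 for CFLAR, 0.041 for FADD and -0.087 for TNFRSF10A. Between both forms TNFRSF10D came to -0.0061 (no normalization). Leaving out 1 array at a time, the values after miR-376a*A against control ran from -0.042 to 0.22 for BID, -0.27 to 0.051 for CASP8, -0.13 to 0.079 for CFLAR, -0.17 to 0.19 for FADD and -0.041 to 0.088 for TNFRSF21. Those after miR-376a*G against control ran from -0.19 to 0.071 for BID, -0.097 to 0.22 for CASP8, -0.10 to 0.11 for CFLAR, -0.26 to 0.10 for FADD and -0.011 to 0.24 for TNFRSF10A. Those between both forms ran from -0.074 to 0.018 for CFLAR, -0.024 to 0.094 for TNFRSF10A and -0.046 to 0.079 for TNFRSF10D. The cause was not tested.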

Other observations

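Several ligands and receptors of the same pathway lay near the dim end and below the filter. FASLG, the ligand of FAS, lay between 9.74 and 30.0 signal units over the 9 arrays, TNF between 3.42 and 20.3, and LTA, a TNF-like ligand, between 1.12 and 3.57. The highest FASLG and LTA values, 30.0 and 3.57, were on control replicate 1. The same array held the highest value of RIPK3, a kinase of necroptosis, at 45.7, against 10.3 to 19.7 on the other arrays. The decoy receptor TNFRSF10C, which lacks an intracellular domain, was at 2.10 to 15.5, and TNFRSF1B, TNF receptor 2, was at 10.8 to 28.2.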
